A study of Mus musculus with 36 samples.

Results

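Whole gut of mouse embryos was profiled by RNA sequencing at E10.5 (embryonic age in days), and the libraries described here are the 6 of the series' 36 that carry the labels E10.5 and Ret null. They were chosen by title and then split by their own Ret RNA, given as FPKM (fragments scaled to transcript length and sequencing depth): 3 libraries lay under 1 FPKM and 3 at 1 FPKM or more. The 3 without Ret RNA are those labelled null male 1, 2 and 3, and the 3 with Ret RNA are those labelled null female 1, 2 and 3, so the split by Ret is also the split by labelled sex. All embryos were C57BL/6J, a standard inbred strain, and no treatment, pooling or allele beyond "Ret null" is given in the labels. The 6 E10.5 wild-type libraries of the same strain (females 1, 2 and 3 and males 3, 4 and 5) served as a second labelled-sex comparison in which every library holds Ret RNA. Nothing in the labels ties a library to an embryo of its own, and the p-values below are therefore relative to a spread between libraries that may be technical.

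Ret is a receptor tyrosine kinase of neural crest cells, the migratory cells that enter the foregut, move along the gut wall and give rise to the neurons and glia of the enteric nervous system. Its ligand GDNF is secreted by the gut mesenchyme and binds the co-receptor GFRα1, and together they activate Ret, which drives survival, proliferation and migration of the crest cells. Gut without Ret has few or no enteric neurons beyond the upper end of the tract. At mid-gestation the crest cells carry the transcription factors Sox10 and Foxd3, and the first of them begin to express neuronal genes.

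The promoters of 4 genes discussed below are shown because these genes were lower in all Ret-absent than in all Ret-present libraries, and they stand for the kinds of gene involved: Chrnb4 (an acetylcholine receptor subunit), Cartpt and Gal (neuropeptide precursors) and Foxd3 (a crest transcription factor). Each is the RefSeq sequence of build GRCm38.p6 from 250 bases before to 50 bases after the annotated start, 300 bases, 5′ to 3′ on the gene's strand. Chrnb4 is at chr9:55048495-55048794 (minus strand), Cartpt at chr13:99900634-99900933 (minus strand), Foxd3 at chr4:99656049-99656348 (plus strand) and Gal at chr19:3414495-3414794 (minus strand). In these data the Gal locus (chromosome 19, 3409917 to 3414457) ends short of its window, so the printed stretch lies wholly upstream of it. Capitals mark CAGCTG, an E-box of the kind bound by basic helix-loop-helix factors, and TGACGTCA, the cyclic AMP response element; both read the same on either strand.
Chrnb4: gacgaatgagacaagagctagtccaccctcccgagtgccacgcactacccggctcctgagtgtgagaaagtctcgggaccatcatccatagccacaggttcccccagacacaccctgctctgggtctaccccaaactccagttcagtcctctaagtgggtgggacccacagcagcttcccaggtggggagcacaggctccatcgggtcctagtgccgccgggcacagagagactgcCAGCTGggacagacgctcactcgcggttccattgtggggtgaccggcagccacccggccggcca
Cartpt: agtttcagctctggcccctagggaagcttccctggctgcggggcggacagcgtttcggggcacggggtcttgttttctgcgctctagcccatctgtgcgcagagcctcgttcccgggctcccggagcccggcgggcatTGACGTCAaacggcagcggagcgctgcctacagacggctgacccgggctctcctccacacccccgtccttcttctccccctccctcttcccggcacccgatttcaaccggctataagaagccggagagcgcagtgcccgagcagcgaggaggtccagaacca
Foxd3: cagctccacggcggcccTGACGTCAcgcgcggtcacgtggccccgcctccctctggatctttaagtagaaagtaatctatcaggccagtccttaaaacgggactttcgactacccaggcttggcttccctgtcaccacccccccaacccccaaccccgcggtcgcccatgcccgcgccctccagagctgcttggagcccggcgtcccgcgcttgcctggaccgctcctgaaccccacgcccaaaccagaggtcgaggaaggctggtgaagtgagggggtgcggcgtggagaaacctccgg
Gal: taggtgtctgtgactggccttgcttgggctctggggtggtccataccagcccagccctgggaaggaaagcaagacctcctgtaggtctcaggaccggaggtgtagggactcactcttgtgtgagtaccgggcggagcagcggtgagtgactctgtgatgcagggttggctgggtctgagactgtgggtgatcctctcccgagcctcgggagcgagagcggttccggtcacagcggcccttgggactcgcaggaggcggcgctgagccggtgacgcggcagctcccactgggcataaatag

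CAGCTG occurred once in the Chrnb4 promoter, TGACGTCA once each in those of Cartpt and Foxd3, and neither in that of Gal. Of the 39 crest, neuron and neuropeptide genes that were lower without overlap (described below), 25 had a promoter in the RefSeq table. CAGCTG was in 4 of the 25 (16%) against 16.3% of all 32851 promoters, and TGACGTCA in 2 of the 25 (8%) against 1.79%. Those 2 are the promoters of Cartpt and Foxd3 shown above, so the 4 printed promoters do not represent the 25 for this motif. These are letter matches in a fixed window and not measured binding sites.

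Ret chose the groups, so its values are a description without a test. Ret (chromosome 6, 118151748 to 118197744, mm10) was at 5.37, 4.74 and 5.76 FPKM in null-labelled females 1, 2 and 3 and at 0.0217, 0.0509 and 0.0123 FPKM in null-labelled males 1, 2 and 3. The lowest value over the threshold was 4.74 FPKM and the highest under it 0.0509 FPKM, so no library lay near 1 FPKM. In wild type Ret was at 5.41, 5.81 and 2.11 FPKM in females and 6.70, 6.64 and 7.34 FPKM in males. The libraries labelled null female therefore go against their genotype label at the level of Ret RNA, and they are called Ret-present below, with the libraries labelled null male called Ret-absent. Triples of values are in the order of the replicate numbers 1, 2 and 3.

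Several properties went with these libraries and bear on every result. Null-labelled females 1 and 2 differed by little more than counting noise (a spread of 1.08 times the noise that the authors' intervals imply, with 1.12% of genes beyond 3 SD) and were averaged and counted as 1 sample, as were wild-type females 1 and 2 and wild-type males 3 and 4, which leaves 9 samples. The number of genes at 1 FPKM or more was 12578 to 13016 over the 6 null-labelled libraries, and FPKM summed to 423799 to 445706. The Ret-present files differed in form from all others: no FPKM value (0%) fell outside the interval printed beside it, while 3.23 to 3.83% did in the Ret-absent files. Sex genes went against the label in 2 libraries: null-labelled female 3 had 0.911 FPKM of Xist and 13.5 FPKM of the Y-linked Ddx3y, and null-labelled male 1 had 66.1 FPKM of Xist and 0 of Ddx3y. Labelled sex, file form and the absence of Ret RNA separate the libraries in the same way and cannot be told apart here, whereas sex as read from Xist crosses the split. Gut markers were present in every null-labelled library, with Cdx2 (the intestinal homeobox factor) at 6.34 to 10.3 FPKM, Epcam (epithelium) at 31.4 to 51.8 FPKM and Foxf1 (gut mesenchyme) at 57.0 to 122.7 FPKM.

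The clearest pattern between the groups was a lower level of neural crest, neuronal and neuropeptide RNA in Ret-absent than in Ret-present libraries. Of the 71 tested genes in these lists, each counted once, 39 (54.9%) were lower in all Ret-absent than in all Ret-present libraries and 1 (Isl1) was higher, while over all 13165 genes tested 4.47% were lower and 6.54% higher without overlap. Their median difference in log2(FPKM + 1), Ret-absent minus Ret-present, was -0.53, against 0.03 for all genes. Ret itself is made by crest cells, so a split on Ret RNA is not independent of other crest genes, and these counts describe the libraries rather than test a list. In whole gut, fewer crest cells and less RNA per crest cell cannot be told apart. The difference was not only a deficit against wild type. For 18 of the 39 genes all Ret-present libraries stood above all 6 wild-type libraries. All Ret-absent libraries stood below all 6 for 4 of the 39.

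No single gene passed an adjusted p of 0.05. By limma, 0 of 13165 genes (0%) were called, and at an unadjusted p under 0.05 there were 161 lower genes (1.22%) and 259 higher genes (1.97%), 420 in all. The smallest adjusted p beside Ret was 0.112, shared by Chrnb4 and Gal. Of the 10 genes with the smallest p beside Ret, all 10 were lower in Ret-absent libraries and 7 were in the 3 lists named above; among the first 50, 40 were lower and 19 were in those lists. With every library counted separately, 32 genes were called, 31 beside Ret, of which 14 were in the 3 lists and all 14 lower. With every null-labelled library counted and the replicate number as a block, 1 gene was called, Ret itself. Leaving out 1 sample at a time gave 0 to 4 calls: 4 without null-labelled female 3 (none in the 3 lists), and 4 each without wild-type females 1 and 2 or without wild-type female 3 (Chrnb4 among them).

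**Figure D1:**
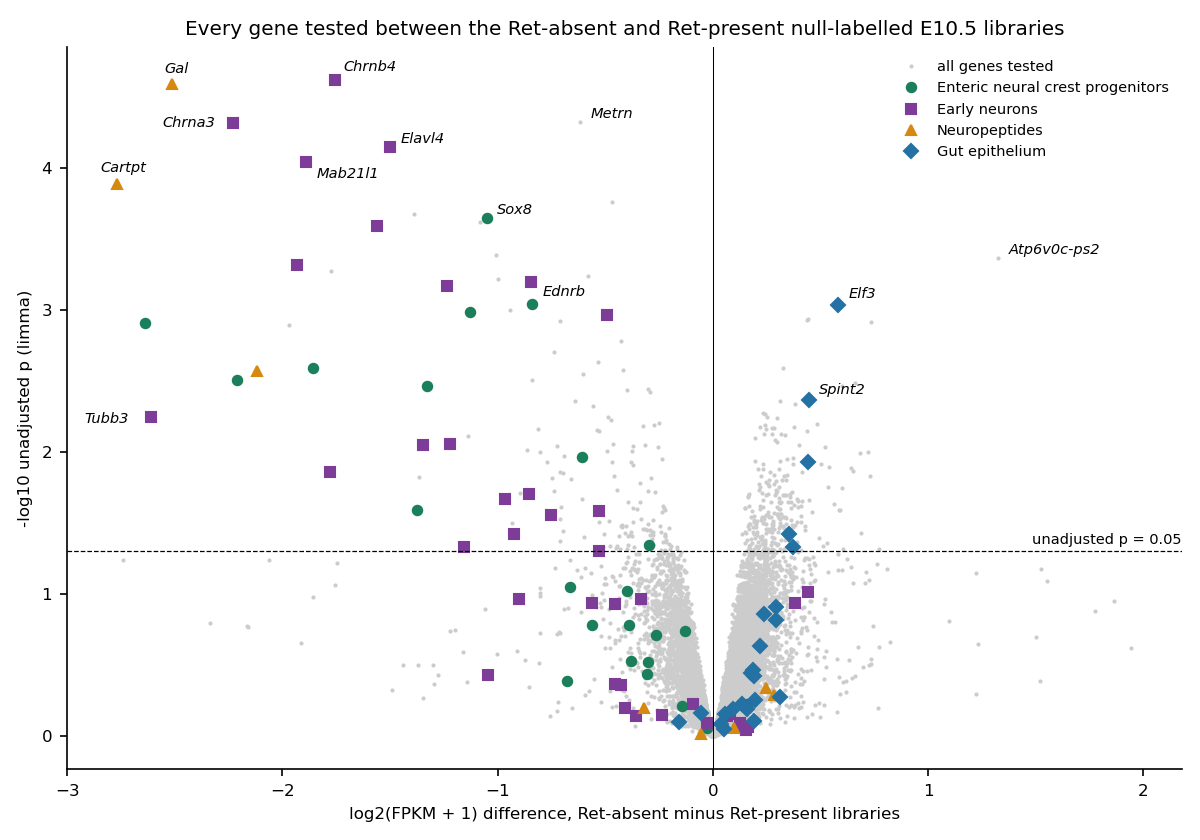
Each dot is 1 gene tested by limma between the Ret-absent and Ret-present null-labelled E10.5 libraries (Ret itself left out), with the log2(FPKM + 1) difference on the horizontal axis and -log10 of the unadjusted limma p on the vertical axis; coloured symbols are members of 4 gene lists and the dashed line marks an unadjusted 0.05. Crest (green), neuron (purple) and neuropeptide (orange) genes are among the points farthest up and left, 21 of the 23 gut epithelial genes (blue) lie right of 0 with small differences, and no gene passed the adjusted threshold.

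Ligands and co-receptors of the Ret pathway were described first. Gdnf was at 9.54, 8.98 and 9.91 FPKM in Ret-present and 10.2, 10.9 and 14.46 FPKM in Ret-absent libraries, slightly higher in each of the latter (log2 difference 0.27, SE 0.21, adjusted p = 0.989 by limma). Gfra1, the GDNF co-receptor, overlapped completely, at 16.3, 17.3 and 30.3 FPKM against 20.2, 22.7 and 25.0 FPKM, with a log2 difference of 0.00 (95% interval -1.04 to 1.04). Nrtn, a second ligand of the family, was at 1.19, 1.84 and 1.31 FPKM against 1.93, 2.62 and 2.11 FPKM. Of the 21 tested members of the RET signalling list other than Ret, 1 was lower and 2 higher without overlap, shares close to the 4.47% and 6.54% of all genes, and their median difference was 0.03. The one that was lower was Dusp6, a feedback phosphatase of the ERK pathway, at 21.1, 21.5 and 20.8 FPKM against 17.6, 16.7 and 16.1 FPKM. Other feedback genes of receptor tyrosine kinases overlapped, among them Spry2 at 8.99, 9.20 and 10.03 FPKM against 9.30, 8.47 and 10.04 FPKM.

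The endothelin receptor is the other main receptor of enteric crest cells. Ednrb, which keeps crest cells migrating and undifferentiated, was at 23.1, 25.6 and 25.4 FPKM in Ret-present and 12.02, 16.8 and 12.03 FPKM in Ret-absent libraries. The groups did not overlap, and the Ret-absent libraries kept 48.3, 67.6 and 48.4% of the Ret-present mean (log2 difference -0.84, SE 0.17, adjusted p = 0.524). Its ligand Edn3, made by gut mesenchyme, overlapped at 12.2, 12.53 and 12.9 FPKM against 13.5, 11.8 and 15.9 FPKM. Erbb3, the neuregulin receptor of crest and glial precursors, was at 6.38, 6.85 and 6.82 FPKM against 3.595, 4.87 and 3.80 FPKM, lower in every Ret-absent library. Thus 2 receptors of the crest cells were lower while the mesenchymal ligands Gdnf and Edn3 were not.

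Several transcription factors of the crest were also lower without overlap. Sox10, which maintains crest progenitors and glia, was at 11.1, 11.8 and 9.19 FPKM in Ret-present and 2.43, 3.86 and 0.798 FPKM in Ret-absent libraries (log2 difference -1.86, SE 0.43, adjusted p = 0.914). The groups were well apart, and male 3 was far below the other Ret-absent libraries; the authors' interval for it ran from 0.509 to 1.07 FPKM.

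Foxd3, an early crest factor, was at 2.44, 2.53 and 2.33 FPKM against 0.492, 0.952 and 0.296 FPKM. Sox8, a relative of Sox10, was at 3.84, 4.59 and 3.301 FPKM against 1.26, 1.48 and 1.13 FPKM (log2 difference -1.05, SE 0.17, adjusted p = 0.260). Tlx2, expressed in enteric neurons and their precursors, was at 6.28, 6.77 and 4.94 FPKM against 2.72, 2.96 and 0.172 FPKM. Sox8 was the most even of these, with all Ret-absent libraries between 29.99 and 39.5% of the Ret-present mean. Hand2, which the gut mesenchyme also expresses, overlapped at 47.7, 50.7 and 48.6 FPKM against 43.0, 42.3 and 48.6 FPKM. In the whole progenitor list, 13 of 24 tested genes were lower without overlap and 0 were higher, with a median difference of -0.48; 3 of its 27 genes were too low to test, among them S100b and Pax3.

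Adhesion and glial genes of the list varied in how far they differed. L1cam, an adhesion molecule of migrating crest cells and axons, was at 5.51, 5.12 and 3.86 FPKM against 1.57, 2.11 and 0.340 FPKM. Itga4, an integrin subunit, was at 3.78, 3.36 and 2.96 FPKM against 1.84, 2.77 and 2.19 FPKM. Fabp7, a lipid-binding protein of glial precursors, kept 78.0, 82.4 and 60.7% of the Ret-present mean.

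**Figure D2:**
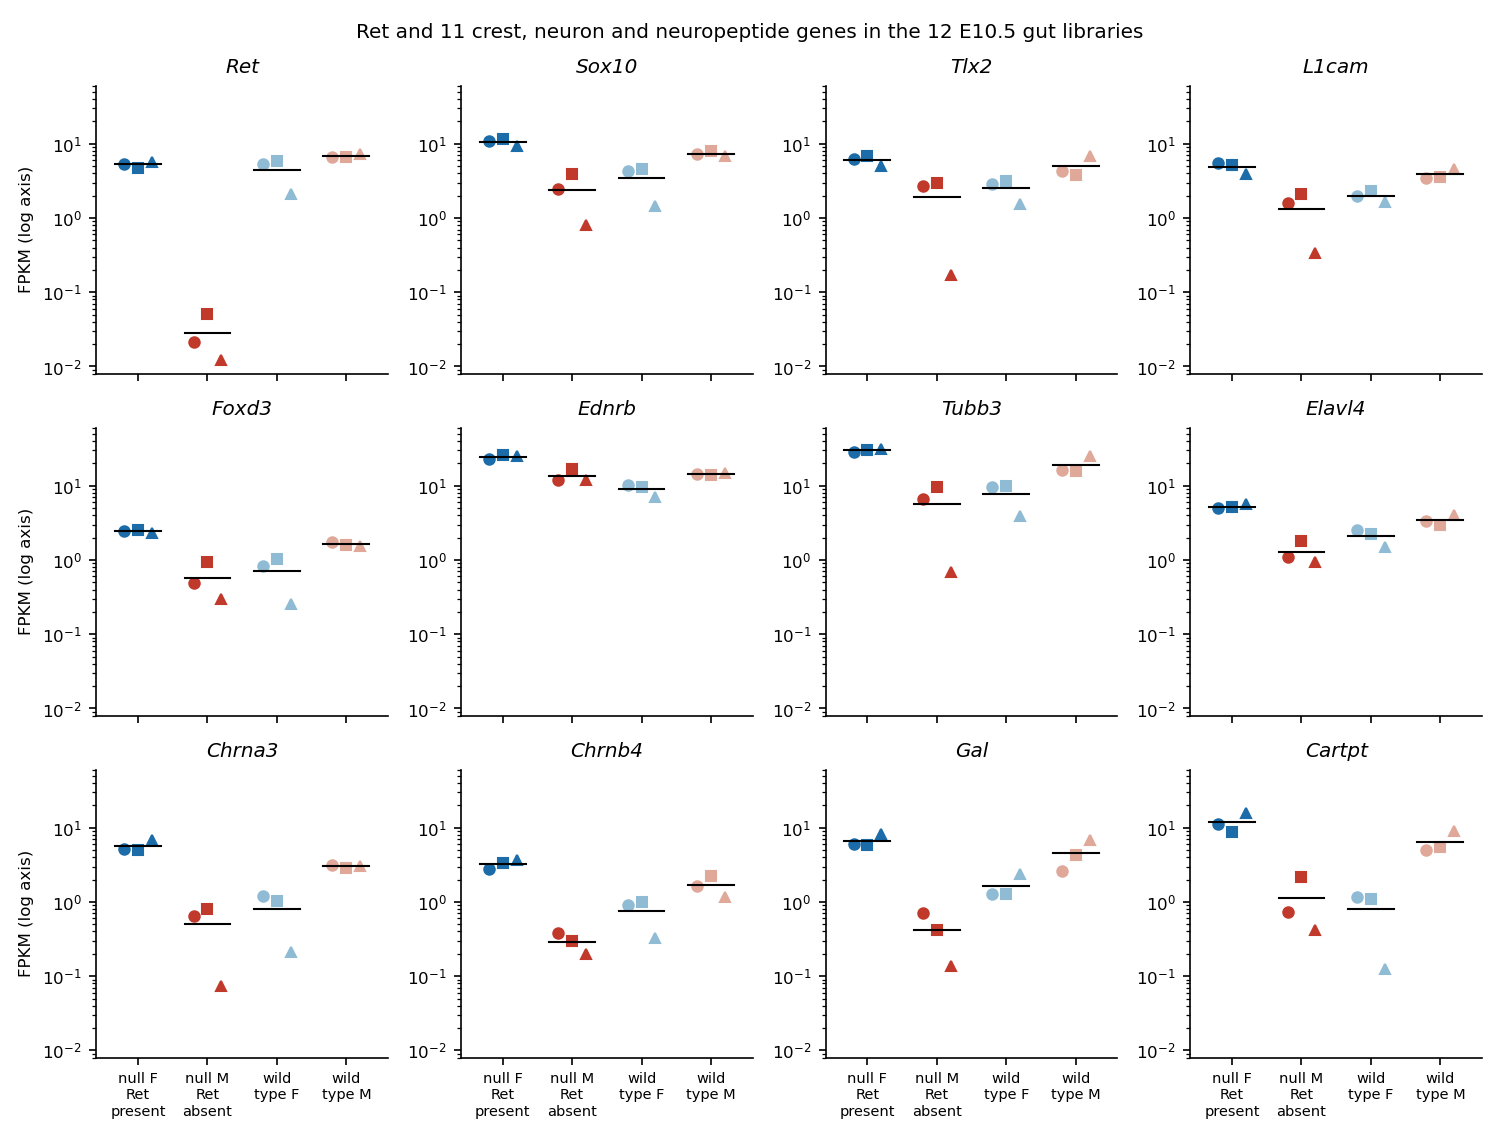
FPKM (log axis) of Ret and 11 crest, neuron and neuropeptide genes in the 12 E10.5 libraries, 1 symbol per library (circle, square and triangle in order of replicate number) and a bar at the mean of the 3 libraries of a group; F and M are the labelled sexes. Every Ret-absent value lies under every Ret-present value in all 12 panels, male 3 (triangle) is lowest for most genes, and for each gene but Ret the wild-type means lie under the Ret-present mean.

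Neuronal genes followed the same pattern. Of 39 tested genes of the early neuron list, 23 were lower without overlap and 1 was higher, with a median difference of -0.56. Tubb3, the neuronal β-tubulin, was at 28.8, 30.3 and 31.3 FPKM in Ret-present and 6.60, 9.54 and 0.699 FPKM in Ret-absent libraries (log2 difference -2.61, SE 0.70, adjusted p = 0.989); the spread over the Ret-absent libraries was wide. Elavl4, an RNA-binding protein of neurons, was at 4.94, 5.09 and 5.71 FPKM against 1.09, 1.82 and 0.928 FPKM (log2 difference -1.50, SE 0.20, adjusted p = 0.157). Gap43, a growth cone protein, was at 46.2, 46.0 and 45.7 FPKM against 21.3, 24.5 and 12.9 FPKM. Gap43 was thus at 28.1 to 53.4% of the Ret-present mean, more than Tubb3 (2.30 to 31.4%).

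Intermediate filament genes also separated the groups. Ina (α-internexin) was at 3.09, 3.86 and 3.39 FPKM against 0.579, 1.004 and 0.0693 FPKM, and had an adjusted p of 0.260 by limma. Prph (peripherin) was at 6.57, 7.16 and 6.76 FPKM against 0.876, 2.51 and 0.309 FPKM. Nefl, the light neurofilament chain, was at 23.9, 23.8 and 12.2 FPKM against 9.74, 12.02 and 5.53 FPKM, with female 3 only just above male 2.

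Subunits of the nicotinic acetylcholine receptor of autonomic neurons were among the genes with the smallest p-values, with Chrnb4 the first beside Ret. Chrnb4 (chromosome 9, 55028156 to 55048544) was at 2.80, 3.35 and 3.67 FPKM in Ret-present and 0.377, 0.302 and 0.2004 FPKM in Ret-absent libraries (log2 difference -1.76, SE 0.21, adjusted p = 0.112). Chrna3, its neighbour on chromosome 9 (55011343 to 55026559), was at 5.23, 5.05 and 6.79 FPKM against 0.648, 0.812 and 0.0736 FPKM (log2 difference -2.23, SE 0.29, adjusted p = 0.128). The Ret-absent libraries kept 5.95 to 11.2% of Chrnb4 and 1.23 to 13.6% of Chrna3, and Chrnb4 was the more even of the pair. Mab21l1, a gene of developing neurons and eye, was at 3.12, 3.37 and 5.24 FPKM against 0.415, 0.661 and 0.139 FPKM (adjusted p = 0.170).

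Neuropeptide precursors that reached the filter split between low and overlapping genes. Gal, the galanin precursor, was at 5.98, 5.78 and 8.33 FPKM in Ret-present and 0.717, 0.421 and 0.136 FPKM in Ret-absent libraries (log2 difference -2.51, SE 0.30, adjusted p = 0.112). Cartpt, the precursor of CART peptide, was at 11.2, 8.70 and 15.7 FPKM against 0.740, 2.18 and 0.421 FPKM (log2 difference -2.77, SE 0.41, adjusted p = 0.215). Cck, the cholecystokinin precursor, was at 6.24, 6.06 and 11.3 FPKM against 2.69 and 1.73 FPKM in males 1 and 2, and was listed at 0 in male 3. These were the 3 of 8 tested neuropeptide genes that did not overlap; all 3 were highest in female 3. Npy, Penk, Sst, Pyy and Gcg overlapped, among them Pyy (peptide YY) at 10.6, 9.68 and 10.47 FPKM against 8.39, 5.15 and 11.9 FPKM. The median difference of the 8 was -0.19, and 7 of the 15 listed precursors, Vip among them, were too low to test.

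Genes outside the lists with the smallest p-values included other genes of developing neurons. By the naming rule (smallest p without overlap, up to 12 genes in each direction, none of them called), the lower ones not yet described were Metrn, Nme7, Dlx2 and Fam184b. Metrn, a secreted factor for glial differentiation and axon growth, was at 35.98, 36.3 and 37.0 FPKM against 23.6, 23.7 and 23.2 FPKM (log2 difference -0.62, SE 0.08, adjusted p = 0.128). The libraries of each group lay close together, and the wild-type libraries, at 26.9 to 34.1 FPKM, lay between the groups. Dlx2, a homeobox factor of crest and interneurons, was at 2.64, 2.85 and 2.502 FPKM against 0.498, 0.618 and 0.0944 FPKM, and its neighbour Dlx1 at 1.78, 1.42 and 2.09 FPKM against 0.342, 0.258 and 0.0278 FPKM. Dlx1as overlaps Dlx1 on the opposite strand, and without strand information in the sources used here their reads cannot be told apart.

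The amount left differed between the Ret-absent libraries. Over the 39 lower genes, male 1 kept a median of 39.5% of the Ret-present mean (range 5.76 to 82.3%), male 2 kept 51.5% (5.93 to 93.0%) and male 3 kept 15.3% (0 to 67.2%). Male 3 was the lowest of the 6 libraries for 36 of the 39 genes, and male 2 the highest Ret-absent library for 34. Among the genes with the least left in male 3, besides Cck, were Elavl3 (0.517%), Stmn3 (1.003%) and Chrna3 (1.23%). Among those with the most left were Itga4, Map2 and Tagln3, at 66.3 to 67.2%.

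**Figure D3:**
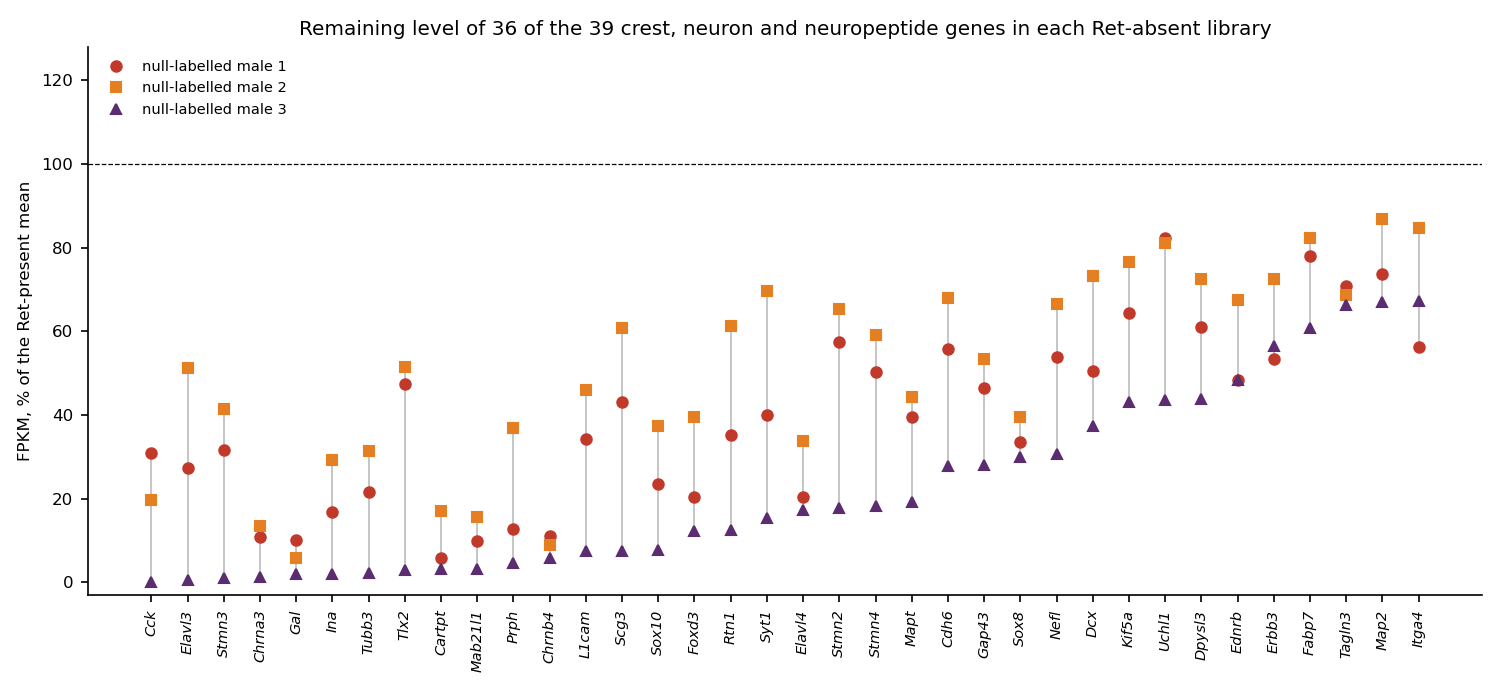
FPKM of 36 of the 39 genes in each Ret-absent library (3 symbols joined by a grey line), as % of the Ret-present mean in which females 1 and 2 count as 1 sample; the dashed line is 100%. Male 3 (triangles) is lowest for 33 of the 36 genes drawn, and the remaining level ranges from 0 for Cck in male 3 to 86.8% for Map2 in male 2.

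Libraries also differed in RNA of other cell types, along lines that were not those of Ret alone. Null-labelled female 3 and male 3 had almost no RNA of some urogenital genes, chosen after their values were seen. Foxd1, a kidney stroma factor, was at 10.48, 10.7 and 0.0273 FPKM in Ret-present and 7.09, 5.13 and 0.0948 FPKM in Ret-absent libraries. Nr5a1, the gonadal and adrenal factor, was at 3.67, 3.50 and 0.0226 FPKM against 2.94, 5.53 and 0.0522 FPKM. The summed level of the mesonephros and urogenital list was 68.6 to 117.7 FPKM in Ret-present and 89.98 to 112.7 FPKM in Ret-absent libraries, lowest in female 3 and in male 3. Most of the sum remained in both, but most single genes were lower. Of the 16 tested genes, 13 were in female 3 at under 50% of the lower of females 1 and 2. In male 3, 9 were at under 50% of the lower of males 1 and 2. Over all 13165 genes these counts were 502 and 286. Lhx1 of that list was listed at 0 in male 3. Catecholamine genes of sympathetic and adrenal precursors were low in the same libraries. Dbh was at 22.0, 23.6 and 4.15 FPKM against 10.1, 12.4 and 0.0343 FPKM, and Th at 11.1, 12.9 and 1.34 FPKM against 6.18, 8.72 and 0.137 FPKM. Both overlapped between the groups but were lower in the Ret-absent library under each replicate number. Of the 32 crest, neuron and neuropeptide genes that overlapped or were higher, 14 were in female 3 at under 50% of the lower of females 1 and 2, among them Th, Dbh, Chga, Chgb, Phox2a, Syp, Snap25 and Npy. The summed level of the sympathoadrenal and Schwann cell list was 86.2 to 144.5 FPKM in Ret-present and 71.7 to 111.4 FPKM in Ret-absent libraries.

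The libraries were also compared within a replicate number, since male 3 and female 3 were alike in these urogenital genes. Between these libraries the median difference of the 71 crest, neuron and neuropeptide genes was -0.93, against 0.05 for all genes. It was -0.72 between male 1 and female 1 and -0.46 between male 2 and female 2, against 0.00 and -0.01 for all genes. Of the 71 genes, 55 were lower in the male under each of the 3 numbers, against 1680 of 13165 over all genes. The 39 genes lower without overlap are among the 55 by definition, and of the other 32 genes 16 were lower under each number. In male 3 Tubb3 was at 2.23% of female 3, Chrna3 at 1.08% and Sox10 at 8.68%; in male 1 the same genes were at 22.9, 12.4 and 22.0% of female 1. Females 1 and 2 are the near-identical pair, so these are not 3 independent comparisons.

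Stomach and liver genes also set libraries apart. Barx1, a stomach mesenchyme factor, was at 5.70, 6.35 and 88.7 FPKM in Ret-present and 80.9, 68.7 and 109.7 FPKM in Ret-absent libraries, so that only females 1 and 2 were low. Cym (chymosin), Nepn and Nkx6-3 were likewise low in females 1 and 2 among the null-labelled libraries, with Cym at 0.395, 0.134 and 12.03 FPKM against 9.61, 13.8 and 9.77 FPKM. Of the 11 tested stomach genes 4 were higher without overlap and 0 lower, with a median difference of 0.57, which was 0.10 without females 1 and 2. The summed stomach list was 58.1 to 199.2 FPKM in Ret-present and 194.4 to 249.7 FPKM in Ret-absent libraries. Afp, an early liver product, was at 161.0, 159.0 and 50.2 FPKM against 5.45, 138.6 and 212.2 FPKM, low in male 1. The 4 stomach genes named here differed between same-numbered libraries 1 and 2, and the part of the stomach and liver genes in the results was not tested beyond the counts without single libraries that follow.

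Counts without single libraries were added after these patterns were seen. Without female 3, 21 of 24 progenitor genes and 34 of 39 neuron genes were lower without overlap, against 16.3% of all genes. Without females 1 and 2, 13 of 24 and 23 of 39 were, against 23.9% of all genes. Without male 1 the counts were again 13 and 23, against 6.45%. Without both libraries whose sex genes go against their label (female 3 and male 1) they were 21 and 34, against 22.3%.

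**Figure D4:**
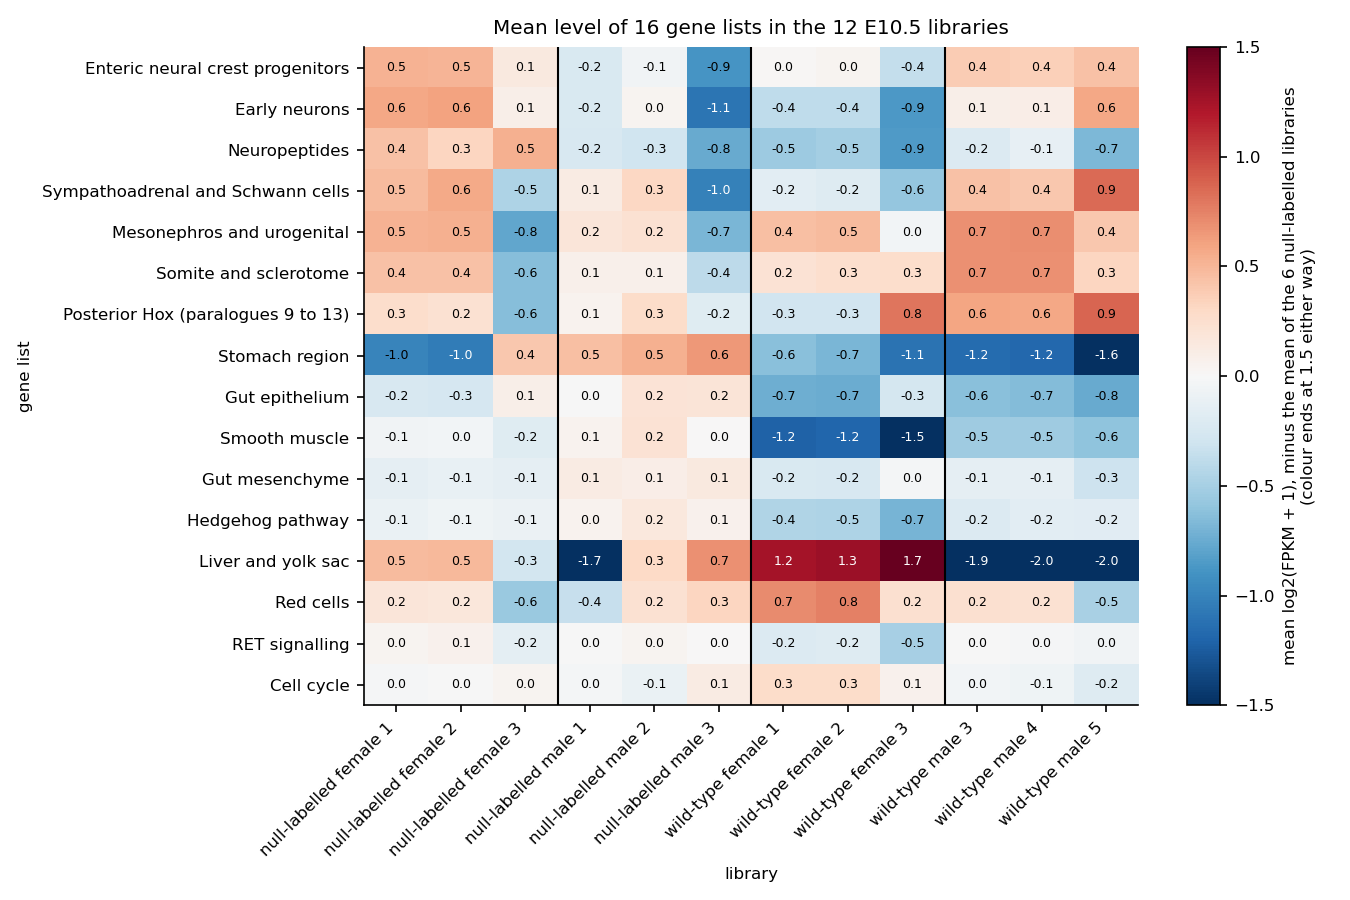
Mean log2(FPKM + 1) of the tested genes of 16 lists (rows) in the 12 E10.5 libraries (columns), minus the mean of the 6 null-labelled libraries; the number in each cell is that difference, and the colour scale ends at 1.5 either way. Among the null-labelled libraries, crest and neuron lists are higher in the 3 Ret-present than in the 3 Ret-absent ones, urogenital and sympathoadrenal lists are low in female 3 and male 3, the stomach list is low in females 1 and 2, and the liver list is low in male 1.

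Genes of the gut epithelium were among those higher in the Ret-absent libraries. Elf3, an epithelial transcription factor, was at 3.299, 3.65 and 4.01 FPKM in Ret-present and 5.89, 5.70 and 6.72 FPKM in Ret-absent libraries (log2 difference 0.58, SE 0.12, adjusted p = 0.524). Spint2, an epithelial protease inhibitor, was at 36.5, 37.6 and 37.9 FPKM against 46.4, 54.1 and 53.8 FPKM. St14 (matriptase, a protease that Spint2 inhibits) was at 4.65, 4.44 and 4.92 FPKM against 6.22, 7.11 and 7.01 FPKM. Of the 23 tested gut epithelial genes, 6 were higher without overlap (also Esrp2, Cldn4 and Grhl2) and 0 lower, with a median difference of 0.19. The count rested on which libraries entered: without females 1 and 2, 9 of the 23 were higher and 9 lower, against 39.3% and 23.9% of all genes, and the median was -0.05.

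Hedgehog, smooth muscle and mesenchyme lists also held genes that were higher without overlap, as 6.54% of all genes were. Shh, the hedgehog ligand of the gut epithelium, was at 12.6, 12.7 and 12.3 FPKM against 14.6, 17.9 and 19.1 FPKM. Of the 14 hedgehog genes, 5 were higher without overlap (Gli1, Gli2 and Sufu among them), with a median of 0.12; of 18 smooth muscle genes 5 were (Actg2, Smtn, Lmod1, Myl9 and Srf), with a median of 0.20; of 28 gut mesenchyme genes 4 were (Foxf2, Foxl1, Nkx3-2 and Tbx5), with a median of 0.19. None had a lower member without overlap. The hedgehog median was 0.20 without females 1 and 2, and the mesenchyme median 0.05 without female 3. No member of these lists was called by limma.

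The other higher genes by the naming rule were members of none of the lists. Pltp, a phospholipid transfer protein, was at 8.14, 7.72 and 5.93 FPKM against 12.02, 13.7 and 10.7 FPKM (log2 difference 0.73, SE 0.15, adjusted p = 0.524). Entpd4, a nucleotidase of the Golgi, is listed at 2 near-identical loci on chromosome 14, where reads can be shared, and was at 9.30, 9.61 and 9.56 FPKM against 13.4, 13.2 and 13.1 FPKM at one of them. Atp6v0c-ps2, a pseudogene of a proton pump subunit, was at 15.2, 23.4 and 38.8 FPKM against 68.9, 75.2 and 66.4 FPKM, while its parent Atp6v0c was at 134.7, 128.8 and 98.6 FPKM against 82.7, 72.6 and 80.5 FPKM. Reads can be split between parent and copy, which had opposite orders, so both values are uncertain. The others were Prr5, 1700013G23Rik, Pxmp2, Plekhj1, 0610040J01Rik and Snx3, with log2 differences of 0.23 to 0.66.

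In wild type the same contrast of labelled sexes ran the other way for crest genes. All wild-type libraries held Ret RNA, and wild-type males had more Sox10 (7.26, 8.06 and 6.75 FPKM in males 3, 4 and 5) than wild-type females (4.28, 4.58 and 1.43 FPKM). Tubb3 was at 16.2, 15.7 and 25.1 FPKM in males and 9.48, 9.85 and 3.86 FPKM in females. The median male minus female difference of the 71 genes was 0.68 in wild type, against 0.00 for all genes. Of the 39 genes that were lower in Ret-absent males, 29 were higher in all wild-type males than in all wild-type females and 0 were lower, while over all genes 24.3% were higher and 26.8% lower without overlap. The wild-type groups also differed in other RNA. Afp was at 443.7, 440.3 and 633.4 FPKM in females 1, 2 and 3 and 3.32, 3.11 and 4.96 FPKM in males 3, 4 and 5. The liver and yolk sac list had a median of -3.19, with 12 of 15 tested genes called lower in males. All 9 stage-linked genes (whose RNA changes with embryonic age) were lower in males without overlap. The part of these differences in the crest contrast was not tested. In wild type limma called 1176 genes, 509 higher in males (3.87%) and 667 lower (5.07%). Among the 39 neuron genes 4 were called higher and 0 lower, and among the 24 progenitor genes 3 and 0. The total rested on single samples: it was 0 without male 5, 11 without males 3 and 4, 54 without female 3 and 683 without females 1 and 2, and 415 and 372 without null-labelled male 1 or male 2, which enter through the shared spread.

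The difference between these contrasts, which share no library, was tested by its interaction term. No gene passed: 0 of 13165 (0%) had an adjusted p under 0.05 by limma, 2459 had an unadjusted p under 0.05 and the smallest adjusted p was 0.0720. Leaving out 1 sample at a time gave 0 to 140 calls, the most without wild-type females 1 and 2. Set against wild type, Ret-present libraries stood above all 6 wild-type libraries for 18 of the 39 genes, and Ret-absent libraries stood below all 6 for 4. These 39 genes were selected as higher in Ret-present than in Ret-absent libraries, so their shares cannot be set against all genes. Of all tested list members, Ret-present libraries stood above all 6 for 8 of 24 progenitor and 11 of 39 neuron genes (5.36% of all genes). Ret-absent libraries stood below all 6 for 4 and 1 of them (7.64% of all genes). Standing above wild type was not particular to crest genes. Ret-present libraries also stood above all 6 for 11 of 18 smooth muscle, 11 of 23 gut epithelial and 0 of 22 cell cycle genes. Wild-type female 3 was often as low as the Ret-absent libraries. Its Foxd3 stood at 0.256 FPKM and its Cartpt at 0.126 FPKM, against 0.296 and 0.421 FPKM in null-labelled male 3. Low neuron RNA was not confined to that wild-type library. Mean log2(FPKM + 1) of the neuron list came to 2.31 for each of its fellow females, 1 and 2. Ret-absent males 1, 2 and 3 had 2.46, 2.73 and 1.60. All wild-type males were higher, at 2.77 to 3.26. The progenitor means of wild-type females 1 and 2 (2.75 and 2.78) exceeded those of all Ret-absent libraries (1.85 to 2.67).

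**Figure D5:**
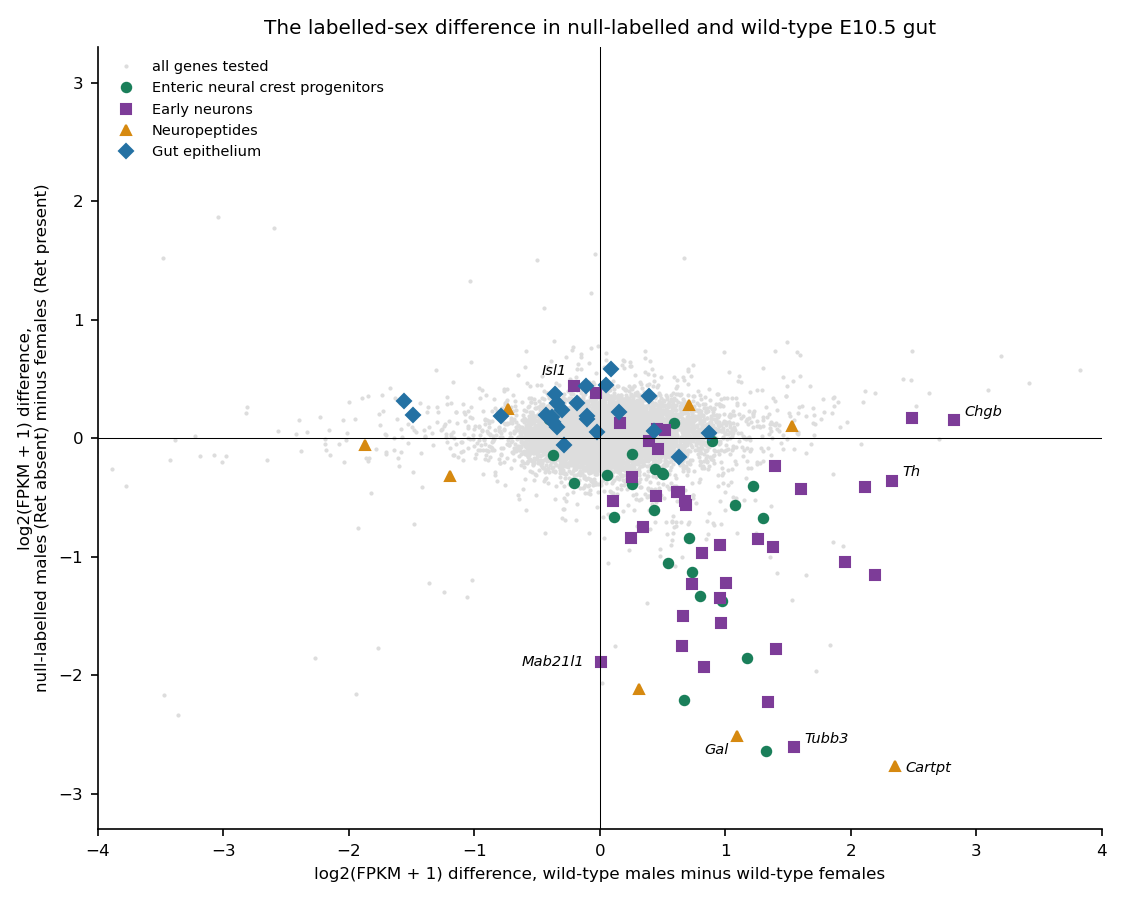
Log2(FPKM + 1) difference of labelled males minus labelled females in wild type (horizontal) and in null-labelled gut (vertical, Ret-absent minus Ret-present), 1 dot per tested gene with 4 lists coloured and Ret left out; 19 genes lie beyond the axes. Most crest (green) and neuron (purple) genes lie at the lower right, higher in wild-type males and lower in Ret-absent males.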

How the data were processed

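Polyadenylated RNA of dissected mouse gut was enriched on oligo dT beads, made into TruSeq libraries and sequenced, per the labels' protocols. The submitters' processing notes name TopHat2, Cufflinks, Cuffdiff and Picard and the build mm10. Their versions and settings, and any scaling between libraries, were not stated in the sources used here. Files as deposited hold gene-level FPKM with the authors' interval around each value, per the file headers. Read counts were not analysed, so depth is known only through those intervals.

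Testing covered genes that reached 1 FPKM in 3 or more samples and had status OK in every library of the fit. It used limma (version 3.58.1, R 4.3.3) with a trended empirical Bayes prior on log2(FPKM + 1); a difference on this scale understates the change of low genes. The 4 E10.5 groups (genotype label by labelled sex) entered as group means, with near-identical libraries averaged to 1 sample each. A pair counted as near-identical where, over genes above 5 FPKM, its spread did not exceed 1.1 times the noise and no more than 1.5% of genes lay beyond 3 SD; these limits were set with the data in view. Tests were two-sided, p was adjusted over all genes tested (Benjamini-Hochberg), and a gene was called at an adjusted p under 0.05. A gene is without overlap where every library of one group lies above every library of the other. Lists are described by counts and medians and were not tested. The members, the 35 gene lists and the tests were chosen with earlier results of these data known. Named genes were up to 12 per direction by smallest p among those without overlap, the 2 members of smallest p in each list, any member of the crest, neuron, neuropeptide, endothelin and RET signalling lists, and sex-linked genes; further genes that set libraries apart were named after their values were seen. Some genes of these lists are not reported here. The fits were tested on simulated data before use. Those data had independent noise for each gene, so they cannot speak to differences shared across genes, such as those in stomach or liver RNA.

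Across genes, deviations from the group means of same-numbered libraries correlated at 0.22, 0.18 and 0.39 for numbers 1, 2 and 3. The numbers were taken to pair the libraries by this check alone. The check did not separate numbers 1 and 2, as female 2 correlated at 0.23 with male 1 and female 1 at 0.18 with male 2. It therefore rests on the likeness of female 3 and male 3. Alternatives were other scalings, pseudocounts and filters, every library counted, a replicate block, Xist as a covariate, other sets of libraries and leaving out each sample. Tables and plots used Python 3.11.15, numpy 2.4.6, pandas 2.3.3, scipy 1.17.1 and matplotlib 3.10.9.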

Additional observations from a re-analysis of the deposited data

How the results depend on the processing

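Among null-labelled libraries 0 genes were called, and the count was also 0 with median scaling, each other filter on low values, no mean-variance trend, Xist as a covariate, null-labelled libraries alone with near-identical ones averaged, and all 36 libraries in 12 groups. It was 1 (Ret) with a pseudocount of 0.1 or 0.5, 8 with quantile normalization, 32 with every library counted, and 8 without null-labelled female 3 and male 1. With every null-labelled library counted it was 6 with no replicate block and 1 with the replicate block. Leaving out each sample gave 0 to 4. The wild-type count of 1176 was 0 with Xist as a covariate, 606 without the trend, 607 without the filter, 1972 with all 36 libraries, 4323 with every library counted, 519 without that female and male and 0 to 1569 leaving out each sample, with 0 without wild-type male 5. The interaction count of 0 was 1 with the filter at 2 samples, with no filter or with a pseudocount of 0.1, 15 with quantile normalization, 122 with all 36 libraries, 1917 with every library counted, 9 without that female and male and 0 to 140 leaving out each sample. Where a setting changed a count, the cause was not tested.

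The medians of the progenitor and neuron lists stayed below 0 under every alternative run, at -0.76 to -0.29 and -1.25 to -0.42. Where leaving out a library left 1 sample in an arm, that sample was assumed to vary like the other groups. With 2 Ret-present samples, low FPKM and unknown read counts, small differences were not detectable. Large ones were not called in the main fit either, such as Cartpt at a log2 difference of -2.77 (adjusted p = 0.215 by limma).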

Other observations

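Genes outside the crest, neuron and neuropeptide lists were also among the 588 that were lower in every Ret-absent library, and 4 members of other lists are given here. Ccnd1, the cyclin that drives entry into the cell cycle, was at 60.5, 58.5 and 45.7 FPKM in Ret-present and 36.2, 38.0 and 33.4 FPKM in Ret-absent libraries. It was the 1 of 22 cell cycle genes without overlap, a share close to the 4.47% of all genes that were lower. Dll3, a Notch ligand of early neurons, was at 1.69, 1.76 and 1.19 FPKM against 0.671, 0.639 and 0.0727 FPKM. Cdh19, a cadherin of Schwann cell precursors, was at 1.36, 1.04 and 1.26 FPKM against 0.420, 0.572 and 0.0503 FPKM. Plxna4, a semaphorin co-receptor of axons, was at 3.61, 3.36 and 2.11 FPKM against 1.77, 1.87 and 0.643 FPKM. None was called by limma. These 4 genes were picked from the lower side only. Without overlap, 1 of 16 Notch genes was lower and 1 higher, and 1 of 27 axon guidance genes was lower and 3 higher. Of 12 sympathoadrenal and Schwann cell genes, 2 were lower and 0 higher. Over all genes 6.54% were higher without overlap.

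Hox genes mark position along the body axis. Of 13 tested anterior Hox genes 2 were lower and 2 higher without overlap (median difference 0.03), and of 12 posterior ones 0 and 2 (median 0.08), and limma called 0 of either list (at an unadjusted p under 0.05, 1 anterior and 0 posterior genes). Hoxd3 was at 17.6, 18.8 and 14.4 FPKM in Ret-present libraries and at 9.63 ± 0.874 FPKM (SD, n = 3) in Ret-absent libraries, all below the former, and Hoxb5 at 15.6, 14.4 and 14.4 FPKM against 10.8, 8.498 and 12.3 FPKM. Hoxa5 was higher, at 25.9, 25.1 and 26.8 FPKM against 32.3, 28.2 and 33.7 FPKM. Hoxd13, a gene of the hindmost gut, was at 1.23, 1.17 and 0.948 FPKM against 2.18, 9.46 and 2.38 FPKM, highest in male 2. Within 10 Mb of Ret, 137 genes were tested, of which 4 were lower and 8 higher without overlap, shares that are not above the 4.47% and 6.54% of all genes.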
